A study of Mus musculus with 6 samples.

Results

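The mouse proteasome subunit genes were taken as every gene symbol of the count tables made of Psm, a letter from a to g, a number and at most 1 further letter. The pattern found 49 of 55367 symbols, all 49 protein-coding. They comprise 7 alpha and 7 beta genes of the constitutive 20S core, 6 ATPase and 11 non-ATPase genes of the 19S regulatory particle, 3 immunoproteasome genes, 2 genes of tissue-restricted core subunits, 5 activator genes, 1 inhibitor gene, and 3 and 4 genes of 19S and 20S assembly chaperones. RNA was measured in 6 libraries, labelled replicates 1 to 6 of 1 group, each from 300 GFP-positive cells sorted by FACS from mouse pancreas and labelled acinar. The genotype was Pdx1-Cre; Klf5-mCherry-CreERT2 and the treatment was none, so no library had another genotype or a treatment to be compared with. Pdx1-Cre acts in the pancreatic epithelium, endocrine cells included. The labels name no GFP reporter allele, no age and no animals, so p-values across these libraries measure only the spread between samples that may be technical. The libraries were made by a modified Smart-seq2 protocol, which copies polyadenylated RNA and amplifies it, here with 12 cycles of PCR pre-amplification.

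The proteasome degrades proteins tagged with ubiquitin. Its barrel, the 20S core, has outer rings of alpha subunits and inner rings of beta subunits, and the proteolytic sites lie on the beta subunits encoded by Psmb5 (chymotrypsin-like), Psmb6 (caspase-like) and Psmb7 (trypsin-like). The 19S particle caps the core, binds and removes ubiquitin, and unfolds the substrate with a ring of ATPases. In immune cells and after interferon, Psmb8, Psmb9 and Psmb10 replace the catalytic subunits Psmb5, Psmb6 and Psmb7 and form the immunoproteasome, which favours peptides that fit MHC class I. Acinar cells make and secrete large amounts of digestive enzymes, and the proteasome degrades proteins that fail to fold in their endoplasmic reticulum.

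The promoters of Psmb5, Psmb6 and their immune counterparts Psmb8 and Psmb9 are shown because the levels below turn on these exchange pairs. Each line gives 250 bases before the RefSeq start of the gene on GRCm38.p6, 5′ to 3′ on the gene's strand, with the match to the antioxidant response element TGACNNNGC in capitals. This element is bound by factors of the Nfe2l family. The windows lie at chr14:54617996-54618245 on the minus strand for Psmb5, chr11:70525107-70525356 on the plus strand for Psmb6, chr17:34197945-34198194 on the plus strand for Psmb8, and chr17:34187331-34187580 on the minus strand for Psmb9.
Psmb5: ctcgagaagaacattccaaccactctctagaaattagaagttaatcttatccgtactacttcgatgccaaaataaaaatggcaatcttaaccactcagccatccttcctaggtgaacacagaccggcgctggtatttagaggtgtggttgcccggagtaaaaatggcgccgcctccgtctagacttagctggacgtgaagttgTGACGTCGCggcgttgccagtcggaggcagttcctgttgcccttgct
Psmb6: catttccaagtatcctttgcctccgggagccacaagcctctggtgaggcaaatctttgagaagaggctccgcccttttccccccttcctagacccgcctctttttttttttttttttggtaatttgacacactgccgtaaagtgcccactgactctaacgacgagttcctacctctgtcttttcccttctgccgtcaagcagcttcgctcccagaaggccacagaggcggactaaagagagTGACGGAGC
Psmb8: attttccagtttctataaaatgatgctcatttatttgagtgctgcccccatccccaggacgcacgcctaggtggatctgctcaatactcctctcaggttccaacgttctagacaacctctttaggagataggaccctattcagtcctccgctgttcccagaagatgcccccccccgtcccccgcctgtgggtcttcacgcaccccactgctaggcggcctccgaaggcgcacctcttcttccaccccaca
Psmb9: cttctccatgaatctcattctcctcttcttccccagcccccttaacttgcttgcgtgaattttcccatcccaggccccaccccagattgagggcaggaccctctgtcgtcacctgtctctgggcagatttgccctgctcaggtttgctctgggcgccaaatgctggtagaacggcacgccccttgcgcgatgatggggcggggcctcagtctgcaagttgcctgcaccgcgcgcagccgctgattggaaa
The match in Psmb5 begins at position -47 and that in Psmb6 at position -9, counted from the start of the gene. Neither Psmb8 nor Psmb9 held a match in this window. For Psmb8, Psmb9 and Psmb5 the RefSeq start lies inside the longer gene span of the GENCODE annotation given below. Their windows therefore cover bases within that span, for Psmb5 only in part.

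RefSeq promoters were matched for 41 of the 49 genes (44 promoters). The other 8 were Psma8, Psmb1, Psmb2, Psmb7, Psmc3, Psmd3, Psmd7 and Psmg2. On either strand of windows from 250 bases before to 50 bases after the start, TGACNNNGC was found in 6 promoters (13.6%), those of Psmb5, Psmb6, Psmc6, Psmd12, Psmd9 and Psme4, beside 12.4% of all 32851 mouse promoters. The interferon-stimulated response element, GAAA repeated after any 2 bases, was found in 5 promoters (11.4%), those of Psmb3, Psmd4, Psmd9, Psme1 and Psmg4, beside 3.44% of all promoters. None of the 3 immunoproteasome promoters held either motif. The GC box GGGCGG was found in 54.5% of the members' promoters and 35.7% of all, the NF-Y box CCAAT in 31.8% and 37.4%, and TATAAA in 9.09% and 13.6%. A match is a description of letters and not a bound site.

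Total counts ran from 4670819 (replicate 5) to 7072270 (replicate 6), and the proteasome genes took 1187 (replicate 5) to 2437 (replicate 1) of them. Ribosomal RNA genes held 38.1% to 60.9% of the counts. The numbers in the names of the deposited files put replicates 1 to 3 in 1 set, here set A, and replicates 4 to 6 in another, set B, and what this number stands for is not given in the sources used here. Set A had a ribosomal share of 42.3% ± 4.34 (SD, n = 3), and for set B it was 60.3% ± 0.524 (SD, n = 3). All 8 acinar markers stood above background in every library, with a summed level of 105513 to 308640 TPM (transcript level: counts per kilobase of exon, scaled to the same total over all genes in every library, ribosomal RNA included). The deposited counts cover introns as well as exons, so reads spread over the genome add to long genes. This background was measured over 1453 olfactory and vomeronasal receptor genes, which pancreas is not known to use, and was 26.4 to 327 counts per megabase, highest in replicate 5. Intervals and limits below cover counting error only.

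All 31 standard subunits, the 14 of the core and the 17 of the 19S particle, were present, and most of the other genes of the family were too. Of the 49 genes, 39 had a mean TPM of 1 or more, as did all 31 standard subunits, beside 32.2% of 21949 protein-coding genes. Divided by the whole gene span in place of the exons, 22 of the 49 reached that level. Counts exceeded 3 times the expected background in all 6 libraries for 25 of the 49 genes, for 22 of the 31 standard subunits, and for 12.3% of protein-coding genes. Without replicate 5 the count was 40 of 49 and 30 of 31, beside 31.8%. The standard subunit short of it was Psmd1, a scaffold of the 19S base, whose locus spans 74765 bases. In bulk libraries, fewer cells that express a gene and less RNA per cell cannot be told apart.

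**Figure D1:**
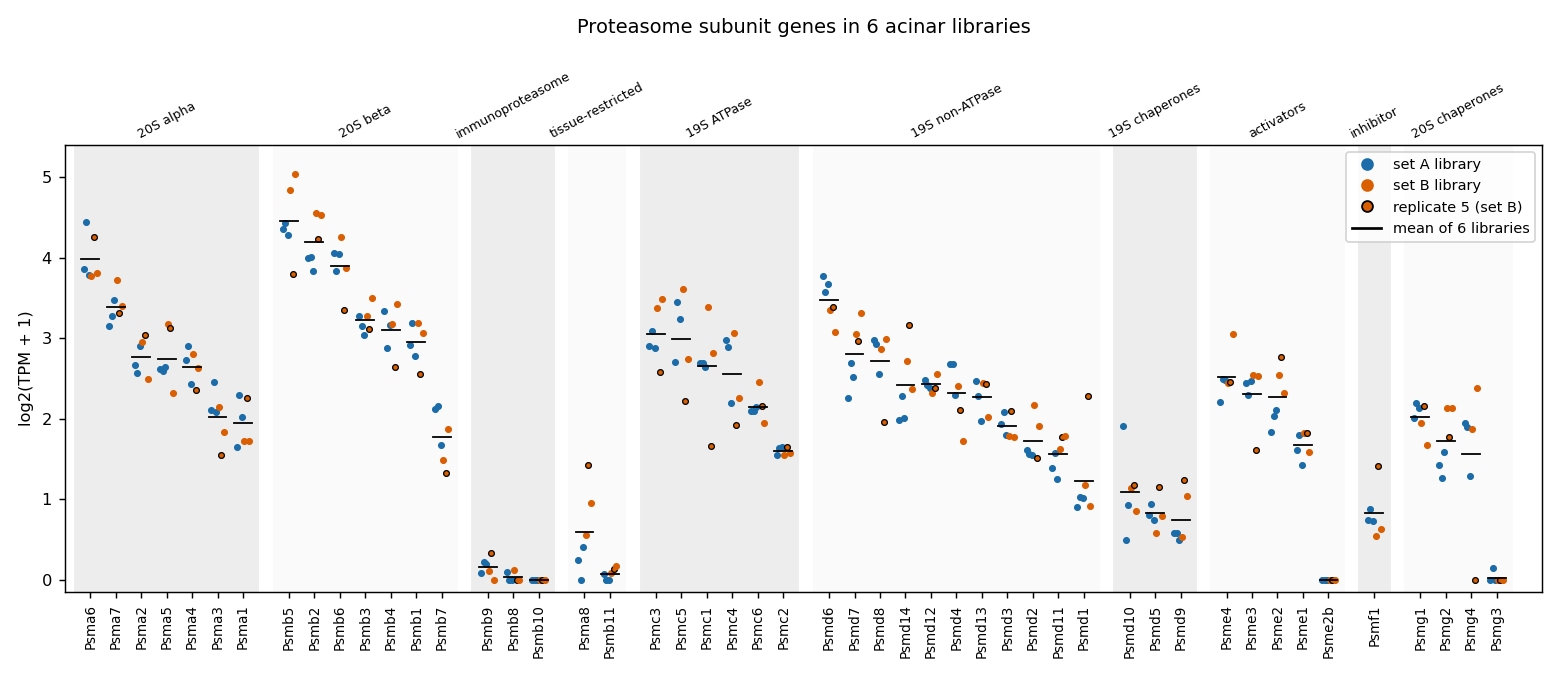
Level of each of the 49 proteasome genes, as TPM on a log2(TPM + 1) axis, in each of the 6 libraries (points, coloured by set, replicate 5 outlined) with the mean (line), grouped by role. The 31 standard subunits lie at means of 1.49 TPM or more, and the immunoproteasome genes Psmb8 and Psmb9 lie near 0. Psmb10 is drawn at 0, but its exons lie inside another gene and no level of it can be read.

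Among the alpha subunits, which form the outer rings and the gate of the core, Psma6 was highest over all annotated exons, while over the principal transcript it was at 16.0 TPM, below Psma7 at 28.7. Its level was 12.7 TPM in the lowest library, 13.3 in the median and 20.8 in the highest. Replicates 2 and 5 were above the other 4 libraries, and sets A and B overlapped. Psma7, the subunit whose testis counterpart is Psma8, ranged from 7.86 to 12.2 TPM with a median of 9.25. Its 6 libraries lay close together, with a coefficient of variation (SD divided by the mean) of 0.158. Psma2, Psma5 and Psma4 followed with mean levels of 5.89 ± 1.06, 5.87 ± 1.64 and 5.3 ± 0.918 TPM (SD, n = 6), differences smaller than their spread. Psma3 and Psma1 were lowest at 3.15 ± 0.871 and 2.91 ± 0.789 TPM. For Psma3, 45.3% of the exon bases lie outside any other gene, and 257 reads were counted over the 6 libraries. Divided by those free exon bases alone, its mean was 6.96 TPM, so its low place among the alpha genes is uncertain.

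Of the beta subunits, Psmb5 had the highest level of all 49 genes over all annotated exons. It lies at chr14:54614119-54618022 (mm10) and reached 13 TPM in the lowest library, 20.03 in the median and 32.0 in the highest, a mean of 21.8 ± 6.84 (SD, n = 6). Replicate 5 was lowest and replicate 6 highest, so both extremes were in set B. Psmb6, at chr11:70525367-70527858, reached 9.21, 14.6 and 18.1 TPM in the lowest, median and highest library. Its low value was again in replicate 5, and the other 5 libraries lay at 13.2 TPM or more. The third catalytic gene, Psmb7, was at 1.5, 2.42 and 3.44 TPM, below every library of Psmb5 and Psmb6. Its locus spans 56052 bases, and 18.0% of its 181 counts were expected from the background. The lowest value of Psmb7 was in replicate 5, where its 11 counts did not exceed the expected background. The catalytic sites occur in equal numbers in an assembled core, while the RNA levels of Psmb5 and Psmb7 differed 8.76-fold over all annotated exons and 2.98-fold over the principal transcript. Over all exons these were also the highest and lowest means of the 14 core genes.

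Psmb2, a structural beta subunit, stood next to Psmb5 with 13.3 TPM in the lowest library, 16.4 in the median and 22.6 in the highest. All 3 libraries of set B were above those of set A on this scale, as for 32.5% of protein-coding genes with a mean of 1 TPM or more. Psmb3, Psmb4 and Psmb1, which are also structural, had means of 8.43 ± 1.11, 7.74 ± 1.69 and 6.81 ± 1.30 TPM, and their libraries overlapped. The order of the core genes depends on the exon length used, which here was that of all annotated exons together. Over the length of the principal transcript of each gene, an alternative chosen after seeing the data, Psmb6 was highest at 29.8 ± 6.30 TPM, Psma7 was at 28.7 ± 4.70, Psmb5 at 19.5 ± 6.14 and Psmb7 at 6.55 ± 2.06. On that scale the core genes ranged 7.75-fold, from Psma3 at 3.85 ± 1.04 TPM. Only 45.3% of the exon bases of Psma3 lie outside other genes, so its level may be read too low. Next lowest was Psma5 at 5.60 ± 1.61 TPM.

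The ATPases of the 19S base pull the substrate into the core. Their class median was 2.61 ± 0.40 on the log2(TPM + 1) scale, below the beta genes at 3.27 ± 0.14. It was not separated from the alpha genes at 2.73 ± 0.22. In replicate 4 the ATPase median (3.22) was above that of the whole core (3.18). Psmc3 was highest among the ATPases, at 5.0, 7.01 and 10.2 TPM in the lowest, median and highest library. Psmc5 was near it with a mean of 7.41 ± 2.92. Psmc1, Psmc4 and Psmc6 had means of 5.65 ± 2.33, 5.14 ± 1.97 and 3.47 ± 0.540 TPM. Psmc2 was the lowest ATPase over all exons, while over the principal transcript Psmc6 was (4.85 TPM, Psmc2 5.12). Psmc2 also had the lowest coefficient of variation of the 31 standard subunits, 0.0466, at 1.93 to 2.13 TPM with a median of 2.04. It rests on 23 to 43 counts a library, where counting error alone spreads values, so it cannot be read as a trait of the gene. Psmc1, Psmc5 and Psmc4 had the largest coefficients of variation among the 18 proteasome genes with a mean of 5 TPM or more, 0.412, 0.394 and 0.383. All 3 were lowest in replicate 5, and Psmc1, Psmc5 and Psmc4 were each highest in replicate 4. The median coefficient of variation of these 18 genes was 0.225, beside 0.242 for the 1314 protein-coding genes at that level.

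Of the non-ATPase 19S subunits, Psmd6, a subunit of the lid, was highest with 7.44 TPM in the lowest library, 10.2 in the median and 12.6 in the highest. Every library of set B was below every library of set A on this scale, as for 6.7% of protein-coding genes with a mean of 1 TPM or more. With TPM computed outside ribosomal RNA the sets overlapped and the means were 16.5 (set A) and 18.0 (set B). Psmd7, the partner of the deubiquitinase Psmd14, had a mean of 6.18 ± 1.88 TPM. It lay the other way, with set B above set A, as for 32.5% of those protein-coding genes. Psmd14, which removes the ubiquitin chain, was at 4.58 ± 1.89 TPM, also higher in set B, and 20.9% of its 246 counts were expected from the background because its locus spans 88683 bases. The ubiquitin receptor Psmd4 had 4.10 ± 1.20 TPM. Psmd8, Psmd12, Psmd13 and Psmd3 lay between 5.74 and 2.78 TPM, and the 2 scaffolds of the base were among the lowest, Psmd2 at 2.34 ± 0.663 and Psmd1 at 1.49 ± 1.16. Psmd1 was between 0.869 and 1.26 TPM in 5 libraries and 3.85 in replicate 5, the library with the highest background. Psmd11, a further lid subunit, had a mean of 1.99 ± 0.422 TPM.

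The core stood above the 19S particle in every library. The median over the 14 core genes was 3.09 ± 0.10 on the log2(TPM + 1) scale and that over the 17 regulatory genes 2.33 ± 0.14, a difference of 0.76 ± 0.16 (SD, n = 6), with the core higher in 6 of 6 libraries. The size of this difference follows the length used, with 0.14 (4 of 6 libraries) over the gene span, 0.40 with no length scaling and 1.00 over the principal transcript. ATPases exceeded non-ATPases by 0.40 ± 0.35 in 5 of 6 libraries, and the sign reversed to -0.15 with no length scaling. Within the core, the median was 3.27 ± 0.14 for beta and 2.73 ± 0.22 for alpha genes. The median over all 21949 protein-coding genes was 0.46 ± 0.31. Summed over the 31 standard subunits, the level was 206 ± 21.8 TPM, from 181 in replicate 5 to 241 in replicate 4, of which the core made up 127 ± 13.7.

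**Figure D2:**
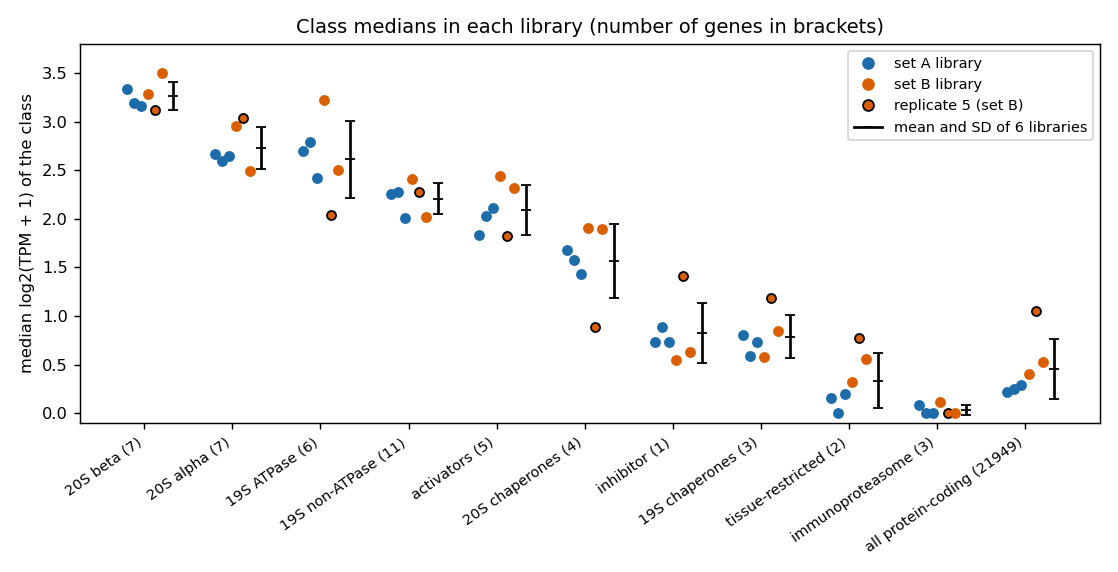
Median log2(TPM + 1) of the genes of each class of proteasome gene in each of the 6 libraries (points, with replicate 5 outlined) and the mean and SD (bars). The 20S beta genes lie highest at 3.27 ± 0.14, the 20S alpha, 19S ATPase and 19S non-ATPase genes at 2.73 ± 0.22, 2.61 ± 0.40 and 2.21 ± 0.16, and the immunoproteasome genes at 0.03 ± 0.05. The immunoproteasome class includes Psmb10, for which no level can be read.

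The immunoproteasome genes were near the limit of detection. Psmb9, at chr17:34181987-34187764, had 8 counts in all, with 0 to 2 in a library, which is 0 TPM in the lowest library, 0.113 in the median and 0.255 in the highest. The gene overlaps Tap1 at its 5′ end, and 94.2% of its exon bases are free of other genes. Counts expected from the background were 42.0% of those seen. Psmb8, at chr17:34197721-34201454, had 2 counts, 1 each in replicates 1 and 4, and the expected background was 108% of that. Only 44.5% of its exon bases lie outside the overlapping Gm20496. Psmb10 had no count, but none of its exon bases is free of Gm16156, and of 1381 protein-coding genes placed in this way 91.7% had no count, beside 9.26% of the 14243 genes with all exon bases free. No level of Psmb10 can therefore be read from these counts.

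The exchange pairs differed far beyond the spread between libraries. Psmb5 exceeded Psmb8 by 4.42 ± 0.42 on the log2(TPM + 1) scale (SD), higher in 6 of 6 libraries. Psmb6 exceeded Psmb9 by 3.75 ± 0.39, again in 6 of 6. Each has p = 0.031 by a two-sided exact sign-flip permutation test over the 6 libraries. This is the smallest p the design allows, and it stays 0.031 after Benjamini-Hochberg adjustment over the 5 pairs compared. With Psmb8 and Psmb9 near 0, any gene well above them in every library gives this p. It therefore adds nothing to the values. Pooled over the libraries and per kilobase of exon, Psmb6 had 137 times the counts of Psmb9 (exact 95% interval 69.0 to 319). For Psmb5 against Psmb8, which rests on 2 counts, the ratio was 767 (211 to 6357) over all exons and 388 (107 to 3218) over exon bases free of other genes. These 2 counts do not exceed background, so no upper limit can be read. The ratio over all exons counts exon bases that lie inside another gene. For Psmb8, therefore, only the lower limit over free exon bases, 107, can be read. The difference of Psmb7 over Psmb10 was 1.77 ± 0.34 and cannot be read, for the overlap given above. The medians of the 14 core and 3 immunoproteasome genes differed by 3.05 ± 0.10, although the latter median includes Psmb10, which cannot be read. With only members whose share of free exon bases was 0.8 or more, Psmb9 alone stood for the immunoproteasome. The difference was then 3.02 ± 0.22. It moved between 1.30 over the gene span and 5.99 with a pseudocount of 0.1, with the core higher throughout.

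**Figure D3:**
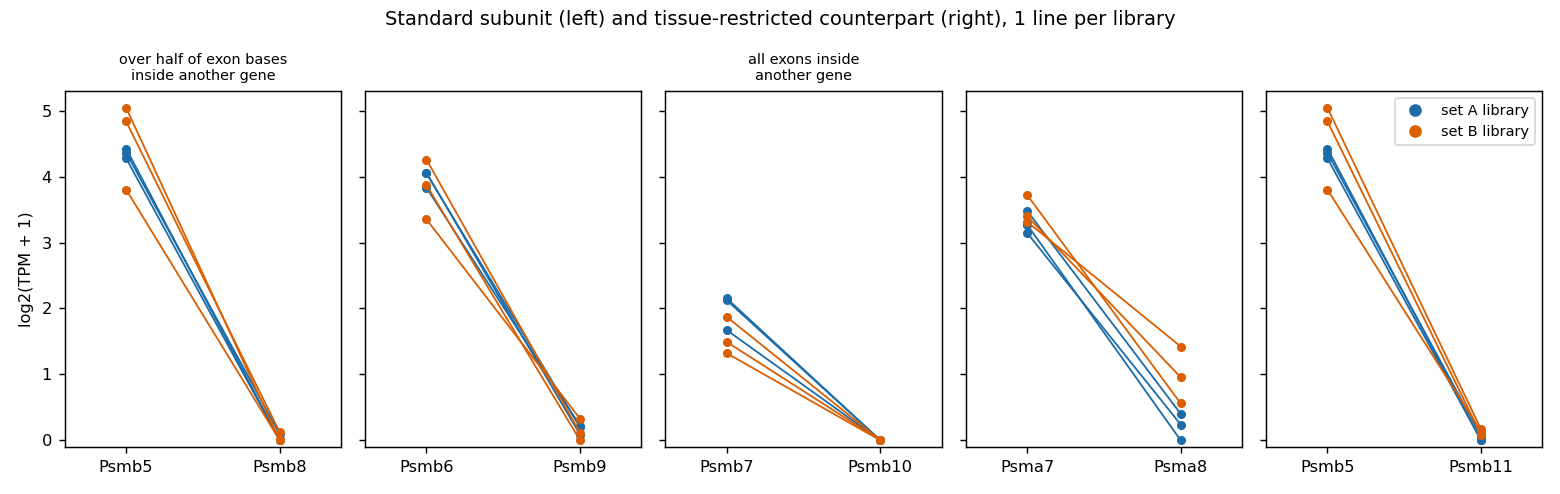
Levels of the constitutive and the restricted gene of each of 5 pairs in each library, as log2(TPM + 1), with a line joining the values of 1 library. The constitutive gene is higher in all 6 libraries in every pair, and the Psmb7 to Psmb10 pair cannot be read because the exons of Psmb10 lie inside another gene.

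Summed levels of immune cell markers were low beside those of the acinar markers, but myeloid markers were not absent. The summed level of 8 myeloid markers was 3.75 to 18.0 TPM, highest in replicate 5. Of these 8, 4 had a mean of 1 TPM or more, beside 32.2% of protein-coding genes, and none was at 0 over the 6 libraries together. The 7 lymphoid markers summed to 0.191 to 5.11 TPM, with 0 of 7 at a mean of 1. Their part in the few counts of Psmb8 and Psmb9 was not tested. Of 8 genes of antigen processing and interferon response, 1 had a mean of 1 TPM or more, Tapbp (tapasin, which loads peptide on MHC class I) at 2.20 ± 0.396. Tap1, which shares its promoter region with Psmb9 and encodes a chain of the peptide transporter, had 13 counts and a mean of 0.119 TPM. B2m, the light chain of MHC class I, had no counts, and its exons lie wholly inside the span of Patl2.

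The restricted core subunits were not detectable above background. Psma8, the testis form of the subunit encoded by Psma7, had 26 counts, while 125% of that number was expected from the background over its 56151 bases. Its level was 0 TPM in the lowest library, 0.397 in the median and 1.68 in the highest, which was replicate 5, and the 3 libraries of set B were above those of set A, as was their background. Psma7 exceeded it by 2.79 ± 0.53 on the log2(TPM + 1) scale in 6 of 6 libraries (exact p = 0.031, adjusted 0.031). Per kilobase of exon, Psma7 had 18.7 times the counts of Psma8, with a lower exact 95% limit of 12.6. The Psma8 counts do not exceed background, so no upper limit on the ratio can be read. Psmb11, the form of Psmb5 that cortical thymic epithelium uses, had 5 counts, with 94.4% of them expected from the background. Psmb5 exceeded it by 4.38 ± 0.43 in 6 of 6 libraries (exact p = 0.031, adjusted 0.031). Both p-values are the smallest the design allows and follow from setting an expressed gene against one at background.

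**Figure D4:**
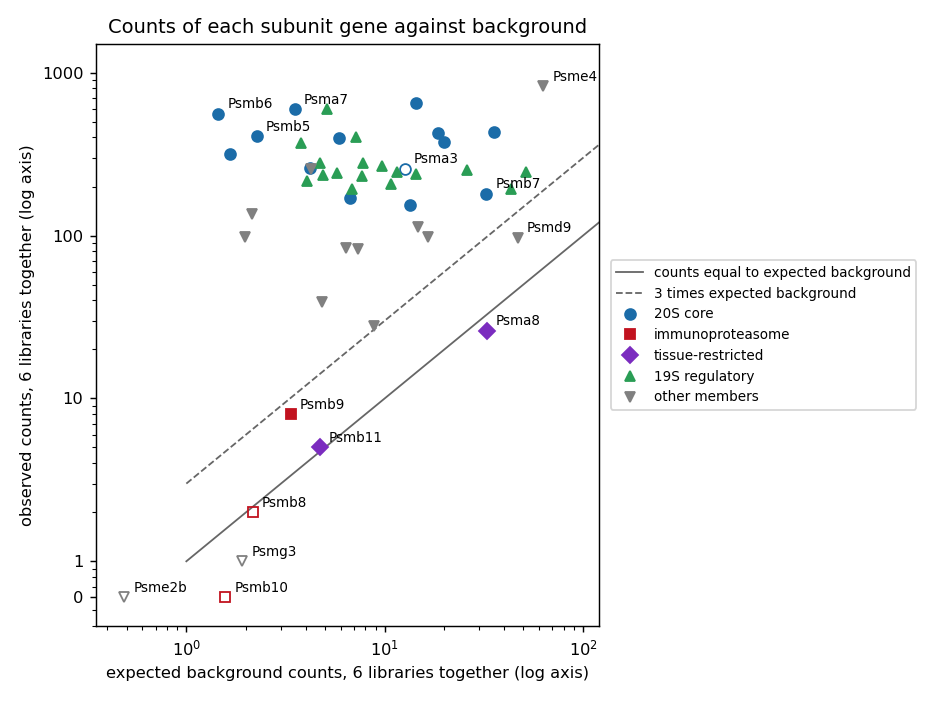
Counts of each proteasome gene over the 6 libraries against the counts expected from the background for its span, both on log axes with the lines of equality and of 3 times background. Genes with under 50% of exon bases free of other genes are hollow, genes with 0 counts are drawn below 1, and Psma8, Psmb8 and Psmb11 lie at or near the line of equality.

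The activators, which open the core in place of the 19S particle, were present, except that no level of Psme2b can be read. Psme4, which encodes a single-chain activator, had 3.60 TPM in the lowest library, 4.54 in the median and 7.32 in the highest, with replicate 6 apart from the other 5. Psme3, the nuclear activator, had 2.05, 4.48 and 4.80 TPM, with replicate 5 below the rest. Psme1 and Psme2 encode the chains of the activator that interferon induces together with the immunoproteasome. Unlike Psmb8 and Psmb9 they were well above background, Psme2 at 2.56, 3.66 and 5.81 TPM and Psme1 at 1.69, 2.25 and 2.54 in the lowest, median and highest library. The expected background was 1.58% and 2.02% of their counts. On TPM all libraries of set B were above those of set A for Psme2, while for Psme1 the sets overlapped. Of protein-coding genes with a mean of 1 TPM or more, 32.5% were higher in set B with no overlap. With TPM computed outside ribosomal RNA, both genes were higher in set B with no overlap, beside 58.7% of protein-coding genes. Psme2b, a near copy of Psme2, had no counts and no exon base free of other genes, so reads of the pair cannot be assigned with certainty. The inhibitor gene Psmf1 had 0.458, 0.664 and 1.66 TPM, with replicate 5 above the rest.

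The assembly chaperones had class medians of 1.57 ± 0.38 (20S) and 0.79 ± 0.22 (19S) on the log2(TPM + 1) scale, and single ones reached the level of the lower subunits. Psmg1 and Psmg2, which together guide the alpha ring, had 3.08 ± 0.522 and 2.38 ± 0.853 TPM (SD, n = 6), near Psma1 and, over all annotated exons, Psma3. Psmg4 had 2.32 ± 1.44 TPM on 28 counts, with none in replicate 5. Its partner Psmg3 had 1 count, in replicate 2, with 16.5% of its exon bases free of Gm26938, so its level cannot be read either. The 19S chaperones Psmd10, Psmd5 and Psmd9 had 1.23 ± 0.814, 0.796 ± 0.251 and 0.709 ± 0.394 TPM. For Psmd9, whose locus spans 80719 bases, 48.3% of the counts were expected from the background.

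The genes around the proteasome were mostly present. Of 24 genes of ubiquitin supply, substrate delivery and assembly, 21 had a mean of 1 TPM or more and 11 stood above 3 times background in all 6 libraries. The highest were the ubiquitin genes Rps27a, a fusion of ubiquitin and a ribosomal protein, at 104 ± 9.46 TPM and Ubb at 40.5 ± 17.1. Sem1, the small lid subunit whose symbol falls outside the Psm pattern, was at 9.18 ± 1.4 TPM, near Psmd6. Adrm1, a ubiquitin receptor of the 19S particle, was at 2.13 ± 0.726 and Pomp, which matures the core, at 1.79 ± 0.388. All 4 genes of the transcriptional response to proteasome loss had a mean above 1 TPM, 1 of them above 3 times background in every library: the factors Nfe2l2 (2.49 ± 1.29) and Nfe2l1 (2.26 ± 0.80), and Ngly1 (1.95 ± 0.503) and Ddi2 (1.37 ± 0.254), which process Nfe2l1.

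Between the sets no proteasome gene passed the test. The sign of their differences moved with the scaling, as did that of other genes, and their median lay below that of all genes compared on each scale. By edgeR's quasi-likelihood test on counts with TMM scaling, 0 of the 40 members tested were called at an adjusted p under 0.05, beside 0% of 8723 genes lower and 0.0115% higher in set B. At an unadjusted p under 0.05 stood 4 members, beside 25.9% of all genes tested, and all 4 had lower values in set B. These were Psmd6 (log2 difference -0.95, SE 0.26, edgeR adjusted p = 0.0901), Psmd4 (-1.05, SE 0.36, adjusted p = 0.112), Psmb7 (-1.05, SE 0.40, adjusted p = 0.137) and Psma3 (-0.92, SE 0.38, adjusted p = 0.159). The members' median difference was -0.41, beside -0.004 over all genes tested, and 26 of the 31 standard subunits had a negative value. On TPM, 16 of the 31 had a lower and 15 a higher mean in set B, with a median log2 ratio of -0.01 (0.49 for protein-coding genes with a mean of 1 TPM or more, 25.3% of which had a lower mean). With TPM computed outside ribosomal RNA, 2 had a lower and 29 a higher mean, with a median of 0.55 (1.29 and 5.46% for the protein-coding genes). Of the 31, 1 was lower in set B with no overlap on TPM, Psmd6, and 0 outside ribosomal RNA, beside 6.7% and 0.925% of protein-coding genes. Higher in set B with no overlap were 4 on TPM (Psmb2, Psmd7, Psmd11 and Psmd14) and 15 outside ribosomal RNA, beside 32.5% and 58.7% of protein-coding genes. Each scaling moves all genes together. The genes compared differed by scale: 8723 of any kind by edgeR, 7074 protein-coding on TPM and 10702 protein-coding outside ribosomal RNA. Relative to the median of the genes compared, the median of the 31 standard subunits was -0.46 by edgeR, -0.50 on TPM and -0.74 outside ribosomal RNA. It lay below on all 3 scales, but the sizes are not like for like. No test of that gap was made.

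Single libraries and the tool decide the calls between the sets. Without replicate 4, 5 members were lower by edgeR (Psma3, Psmc4, Psmc5, Psmd4 and Psmd6, adjusted p = 0.033, 0.042, 0.046, 0.015 and 0.022), beside 5.72% of genes lower and 16.9% higher. Without replicate 5, 1 member was lower, Psmd6 (adjusted p = 0.014), beside 4.07% lower and 4.04% higher, and the members' median was -0.23. That median was -0.69 without replicate 4. DESeq2 called Psmd6 alone (adjusted p = 0.041), beside 2.6% of genes lower and 9.1% higher. With no filter on low counts edgeR called 0 members, beside 0.682% lower and 2.65% higher. The acinar markers moved with the sets, with sums of 270150 to 308640 TPM in set A and 105513 to 166698 in set B. Ribosomal share and background moved with the sets too, as given above. The sums of 5 endocrine markers overlapped, at 8.90 to 39.4 TPM in set A. In set B they were 35.9 in replicate 5, 999 in replicate 4 and 2224 in replicate 6. The part of these measures in the members' values was not tested.

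**Figure D5:**
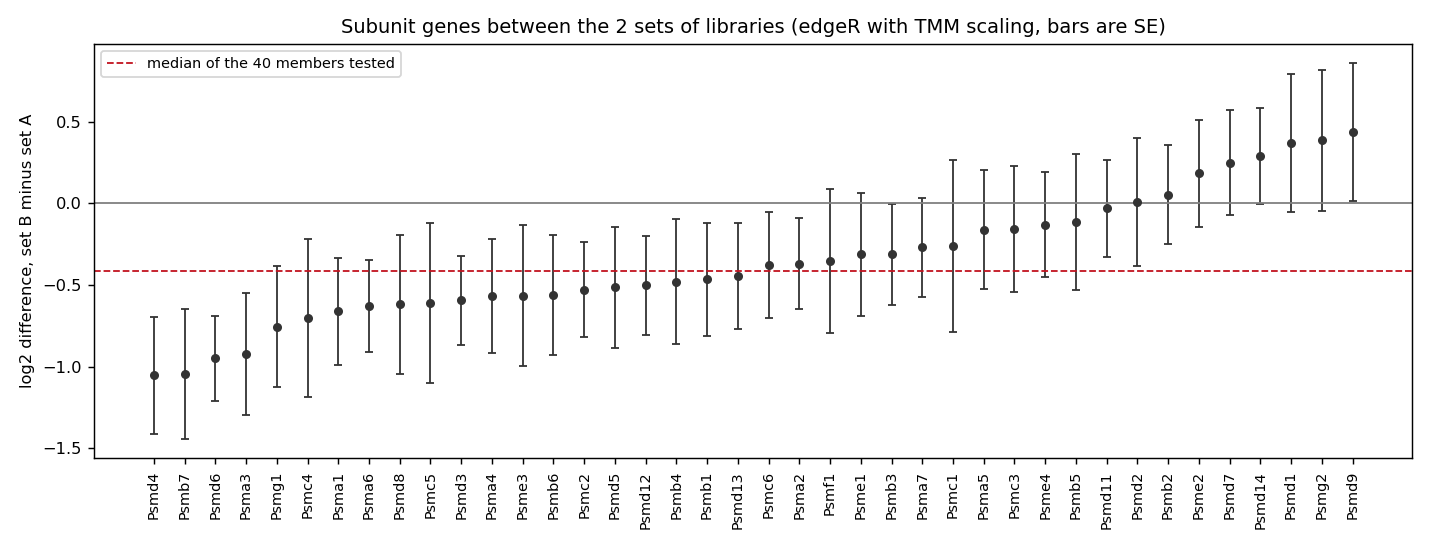
Log2 difference between set B and set A for the proteasome genes tested, with the SE, from edgeR's quasi-likelihood test with TMM scaling. Most values are below 0 (median -0.41) and none passes an adjusted p of 0.05; on TPM the standard subunits' median ratio is -0.01 (0.49 for protein-coding genes) and outside ribosomal RNA it is 0.55 (1.29), so the sign flips with a scaling that moves all genes.

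Replicate 5 had the lowest TPM for 13 of the 31 standard subunits (41.9%), beside 18.2% of protein-coding genes with a mean of 1 TPM or more. It was also the library with the fewest counts, the largest ribosomal share and the highest background. Its acinar marker sum was the lowest (105513 TPM), and its sums of myeloid (18.0 TPM, next library 7.03) and of 5 endothelial markers (12.3 TPM, next library 4.68) were the highest. Lymphoid, fibroblast, ductal and endocrine sums were highest in other libraries. Over 3 times background in all 6 libraries stood 1 of the 8 myeloid and 0 of the 5 endothelial markers. The part of these measures in the members' values was not tested.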

How the data were processed

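Gene counts of 6 Smart-seq2 libraries, 1 per sample, were used as deposited. Per the submitters' processing notes, Trim Galore 0.6.4, FastQC, STAR 2.7.9a, SAMtools and featureCounts were used with mm10. The annotation release, strand setting and treatment of reads with several positions are not given in the sources used here. In the deposited counts the length of each of the 55253 genes with 1 interval equals its span, so introns were counted.

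Exon lengths came from GENCODE M21 for 55141 of 55367 symbols (99.997% of counts), and TPM was computed from them. The background of a gene was the receptor genes' counts per megabase times its span. Sets were compared with edgeR 4.0.16 (quasi-likelihood, TMM, filterByExpr, Benjamini-Hochberg over all genes tested) in R 4.3.3, and with DESeq2 1.42.0 as an alternative. The edgeR code was tested on simulated data. Pairs were tested by an exact sign-flip permutation over 6 libraries, and ratios of pooled counts have exact 95% intervals. A level of 3 counts, the limit that a count of 0 allows, was 0.424 to 0.642 CPM. Alternatives were the pseudocount (1 or 0.1), the length, the scaling, the filter, the background and leaving out each library. Genes named were the catalytic, restricted, activator and inhibitor genes, the extremes of each class and those with the largest spread; further members are described by level. Members, lists and tests were chosen with earlier results of these data known. Single values of some genes of the ubiquitin list are not reported here.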

Additional observations from a re-analysis of the deposited data

Results flagged for a closer look

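In 6 of 34 values examined, the highest or lowest library stood apart from the other 5 by more than Dixon's 95% limit for 6 samples. For normal values chance flags about 1 in 20 groups. Some of these genes were named for their large spread and others have few counts, so the number flagged cannot be set against that rate. Replicate 5 stood apart for 3 genes. Psmd1 was at 3.85 TPM there, with the next library at 1.26. Psmf1 was at 1.66 TPM, with the next at 0.844. Psme3 was at 2.05 TPM, with the next at 3.89. In replicate 6, Psme4 was at 7.32 TPM, with the next at 4.65. In replicate 1, Psmd10 was at 2.76 TPM, with the next at 1.27. In replicate 2, Psmg3 was at 0.104 TPM from 1 count, and all others were at 0.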

How the results depend on the processing

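The differences of the pairs Psmb5 to Psmb8, Psmb6 to Psmb9, Psma7 to Psma8 and Psmb5 to Psmb11 kept their sign and their side of the threshold under every alternative with 6 libraries. With the restricted genes near 0 that side could hardly change, while the sizes did. Psmb5 minus Psmb8 was 2.97 over the gene span and 7.44 with a pseudocount of 0.1. Psmb7 minus Psmb10 fell to 1.47 with the background subtracted (exact permutation p adjusted 0.0625). With 1 library left out, no pair can go below an exact p of 0.0625, and the ranges were 4.30 to 4.55 for Psmb5 minus Psmb8, 3.67 to 3.89 for Psmb6 minus Psmb9, 1.70 to 1.86 for Psmb7 minus Psmb10, 2.7 to 2.97 for Psma7 minus Psma8 and 4.28 to 4.53 for Psmb5 minus Psmb11. The core minus immunoproteasome difference was 5.99 with a pseudocount of 0.1, 1.30 over the gene span, 3.27 with no length scaling, 3.73 outside ribosomal RNA and 3.73 over the principal transcript. It could not be computed from members whose mean TPM was at least 1, since no immunoproteasome gene was left. Core minus 19S was 0.14 over the gene span, 0.40 with no length scaling and 1.00 over the principal transcript. ATPase minus non-ATPase was -0.15 with no length scaling and 0.041 over the principal transcript. The number of members lower in set B was 1 by DESeq2 and 0 to 5 with 1 library left out. The number above 3 times background ran from 25 to 40 with 1 library left out, and 22 members had 1 TPM or more over the gene span. Principal transcript length was chosen after seeing the data. The cause of these moves was not tested. No paired analysis was possible because all libraries belong to 1 group and no replicate number occurs in both sets. With 1187 to 2437 counts of proteasome genes in a library, a gene below 3 counts there cannot be told from 0.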

Other observations

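Besides the 49 genes, 6 symbols began with Psm. The 5 named pseudogenes (Psmb6-ps, Psmb6-ps2, Psmb7-ps2, Psma5-ps and Psmb5-ps) had 12 counts in all, of which Psmb5-ps had 8, beside 408 for Psmb5. Psmc3ip, a recombination factor of meiosis that is no proteasome subunit, had 4 counts.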
